A study of Mus musculus with 5 samples.

Results

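The array of 32D cells that carried the FLT3-ITD construct labelled ITD78 was compared with the arrays of 3 other constructs, ITD598, ITD602 and ITD611, called the reference arrays here. A gene was counted as set apart where its ITD78 value lay at least 1 on the log2 scale (2-fold) above the highest or below the lowest of the 3 reference values. Of 9621 genes past a filter on low values, 103 met this rule, of which 41 read higher on ITD78 and 62 read lower. By distance from the nearest reference, with low values raised to a common level, the genes higher on ITD78 were led by the embryonic globin gene Hba-x, the von Willebrand factor gene Vwf, Greb1 and Ly6f, and held 7 red cell genes, and those lower were led by the macrophage antigen gene Adgre1, the interferon-inducible Ifitm1, the galectin gene Lgals1 and the protease inhibitor gene Serpinb1a.

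32D is a mouse myeloid progenitor line that grows on interleukin-3. All cells were stably transduced with a retroviral FLT3-ITD construct, starved for 3 h and then treated for 1 h with a tyrosine kinase inhibitor that the labels do not name. RNA levels were read on Affymetrix Mouse430_2 arrays, 1 array per construct. The sources used here do not say what the construct numbers stand for, whether the receptor is mouse or human, or whether a line was a clone or a pool. Every array compared thus carries an ITD receptor and saw the inhibitor, and no untransduced or untreated cells were analysed here. With 1 array per construct there was no test, and an SD below is the spread between the 3 reference constructs (n = 3), not between replicates.

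Early blood progenitors carry the receptor tyrosine kinase FLT3, which in acute myeloid leukaemia can hold an internal tandem duplication (ITD) that leaves it active without its ligand. Its signal runs through STAT5, the RAS-ERK pathway and PI3K-AKT, which restrains FOXO factors. Red cell and megakaryocyte genes are driven by GATA1 with KLF1, TAL1 and GFI1B, whereas PU.1 and the C/EBP factors drive the genes of monocytes and granulocytes.

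Of the 9621 genes, 0.426% were set apart upwards and 0.644% downwards, 1.07% in all. Against the mean of the references, a looser rule, 69 genes (0.717%) read at least 1 higher and 104 (1.08%) at least 1 lower. With ITD598 left out, 62 genes in place of 41 were set apart upwards. Over all 18193 genes with a probe set, 46 (0.253%) were set apart upwards and 62 (0.341%) downwards. The median difference of the genes set apart from the mean of the 3 reference arrays was 1.46 for those higher (range 1.05 to 3.70) and -1.65 for those lower. Over all genes the median difference was -0.015, the SD of the differences was 0.34, and the ITD78 values correlated with the reference means at r = 0.986 across genes, which are not independent replicates. The median SD of the reference constructs was 0.20 for the higher and 0.22 for the lower genes, against 0.0997 over all genes. Reference values of 17.1% of all genes held an exact tie, so an SD near 0 is no measure of precision. Just inside the limit lay Arfgap3 (distance 1.01 from the nearest reference array), Alox5 (1.03), Gpt2 (-1.01) and Ifngr2 (-1.02), and just outside it lay Narf (0.994), Parvb (0.992), Atp8b4 (-0.997), Cav2 (-0.976) and Prtn3 (-0.975).

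**Figure D1:**
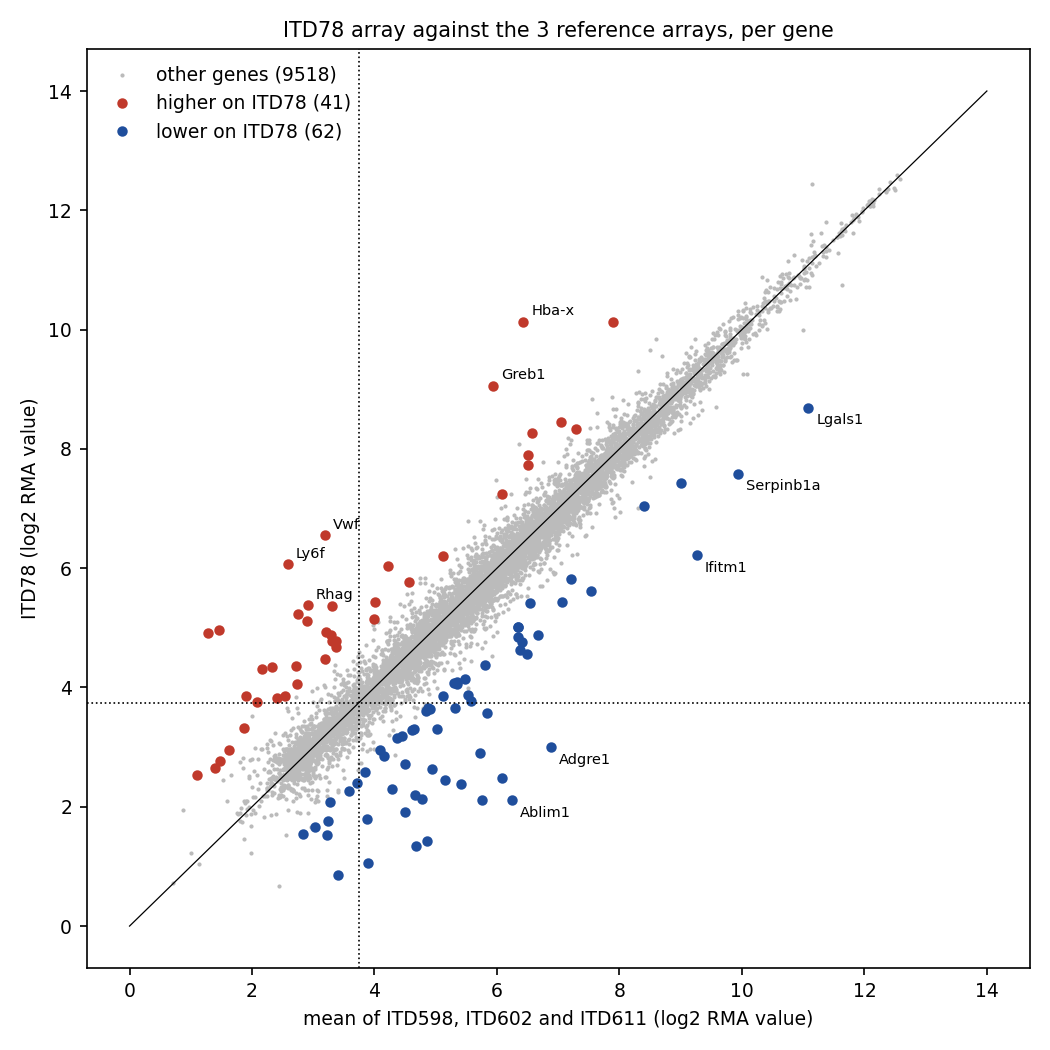
Log2 value on the ITD78 array (vertical axis) against the mean of the 3 reference arrays (horizontal axis), 1 point per gene past the filter. The 41 genes set apart upwards and the 62 set apart downwards are coloured, and the remaining genes lie along the line of equal values.

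The 4 arrays had medians from 1.99 to 2.06. Low values came in steps: on each array 23.7% to 30.3% of the probe sets held a value that recurred in 100 or more of them, up to a level of 3.74. Values below 3.74 are printed as levels, and a difference that reaches below it cannot be sized. Of the higher genes 27 had all reference values below 3.74, and of the lower genes 38 had their ITD78 value there; 5 higher and 6 lower genes had all 4 values there. When values below 3.74 were raised to it, 26 genes (0.27%) were set apart upwards and 32 (0.333%) downwards. The title of the ITD602 array carries another date-like string than the rest, and its probe sets for the bioB hybridisation control read 5.74 to 6.12 against 2.05 to 2.95 on the other arrays compared, and for ITD602 the run cannot be told apart from the construct. With ITD602 left out, 46 genes were set apart upwards and 64 downwards. These include all 103 by construction, since a gene beyond all 3 references is also beyond the remaining ones. The count therefore cannot tell whether the run mattered.

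The cell type was checked by its markers. Of 10 myeloid progenitor markers 6 reached 3.74 on at least 1 of the 4 arrays. The log2 values of all 10, including those in the low range, summed to 46.1 on ITD78 and to 48.2 to 50.3 on the reference arrays. The leukocyte antigen gene Ptprc read 8.31 on ITD78 and 8.93, 9.0 and 8.96 on ITD598, ITD602 and ITD611, the order in which reference values are given throughout. The progenitor factor gene Myb read 9.34 against 8.91, 9.09 and 9.09, while Kit, Cebpa and Cd33 stayed below 3.74 on all 4 arrays. None of the markers of B cells, epithelium, fibroblasts, muscle or neurons reached 3.74, and of the T cell markers Zap70 did. Flt3 itself, the gene of the receptor, read 1.90 on ITD78 and 1.94, 1.90 and 1.74 on the references, all in the low range, so the arrays gave no level of the receptor that the cells carry.

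Red cell genes formed the clearest group on the higher side. Of 22 genes of an erythroid list with a probe set, 17 passed the filter, 7 of them were set apart upwards and 0 downwards, against 0.426% of all genes. Of the 22, 17 read above all 3 reference arrays by any amount and 0 read below all 3, where 23.3% and 25.2% of the 18193 genes with a probe set did so. With the filter on the mean of the 4 arrays, which drops genes at low levels, 4 erythroid genes were set apart in place of 7. The median difference of the list was 0.98 among the 17 past the filter and 0.89 among the 22. In bulk RNA fewer cells of a type and less RNA per cell cannot be told apart, and this holds for every group of genes below.

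The embryonic globins had the highest levels. Hba-x, the embryonic zeta globin, read 10.13 on ITD78 and 7.13, 5.44 and 6.73 on the references. ITD78 was the highest array by 3.00 and the 3 references spread over more than 1 unit among themselves (SD 0.89), and the ITD78 level was 13.0-fold the mean of the references. Hbb-bh1, an embryonic beta-like globin, read 10.13 against 8.65, 6.85 and 8.16, a 4.73-fold difference. Its other probe sets read 9.96 and 9.72 on ITD78 and were set apart too. The embryonic Hbb-y read 12.44 against 11.74, 10.31 and 11.37, higher by 0.70 than the nearest reference and so short of the limit. Adult Hbb-b2 read 8.08 against 7.41, 5.18 and 6.51. In all 4 of these globins ITD602 was the lowest array and ITD598 the highest of the references. The 1 probe set used for Hba-a1, adult alpha globin, read 1.02 on every array, in the low range. Probe sets with several gene symbols were not used, so the level of adult alpha globin cannot be told from this value.

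Genes of the red cell membrane and its skeleton followed. This group was made after its values were seen. Of 10 such genes with a probe set, all past the filter, 4 were set apart upwards (0.426% of all genes past the filter) and 9 read above all 3 references (27.5%). Among the 4 arrays compared, Slc4a1, Ermap and Epb42 reached the filter value of 2.75 on ITD78 alone, so the share past the filter cannot weigh their calls. Of all genes with a probe set, 0.253% were set apart upwards and 23.3% read above all references. Slc4a1, the band 3 anion exchanger, read 4.91 on ITD78 and 1.22, 1.41 and 1.22 on the references, so it was above the low range on ITD78 alone. A further probe set of Slc4a1 read 3.45 against 1.36, 1.46 and 1.35. Rhag, the Rh-associated glycoprotein, read 5.38 against 3.37, 2.28 and 3.08. Ermap, an erythroblast membrane protein, read 3.86 against 1.93, 2.04 and 1.75. Epb42, protein 4.2 of the membrane skeleton, read 3.32 against 1.88 on each reference, with all values in the low range. Members with higher levels differed less: the glycophorin gene Gypc read 7.77 against 6.78, 6.66 and 6.81, and Ank1, the ankyrin that ties band 3 to the skeleton, read 4.97 against 4.22, 3.55 and 4.22. Rhd, an Rh antigen gene, read 5.82 against 5.34, 5.36 and 5.28, above all 3 by under 1 unit.

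Of the factors that drive these genes, Klf1 was set apart. It encodes the factor that switches on adult globin and many membrane genes, and it read 8.44 on ITD78 and 7.36, 6.68 and 7.08 on the references, 2.65-fold their mean. Gata1 read 7.01 against 6.29, 5.84 and 6.05. Gfi1b, a repressor needed for red cells and megakaryocytes, read 6.30 against 5.66, 5.59 and 5.54. Nfe2, a factor of globin and platelet genes, read 7.49 against 6.75, 6.69 and 6.56. For all 4 the groups did not overlap, as for 27.5% of all genes in that direction. Tal1 and the GATA1 partner gene Zfpm1 also read above every reference, at 8.96 against at most 8.46 and at 8.15 against at most 7.65. The erythropoietin receptor gene Epor did not differ in this way (3.24 against 3.24, 3.24 and 3.08), and the transferrin receptor gene Tfrc read 9.63 against 9.49, 9.52 and 9.55.

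**Figure D2:**
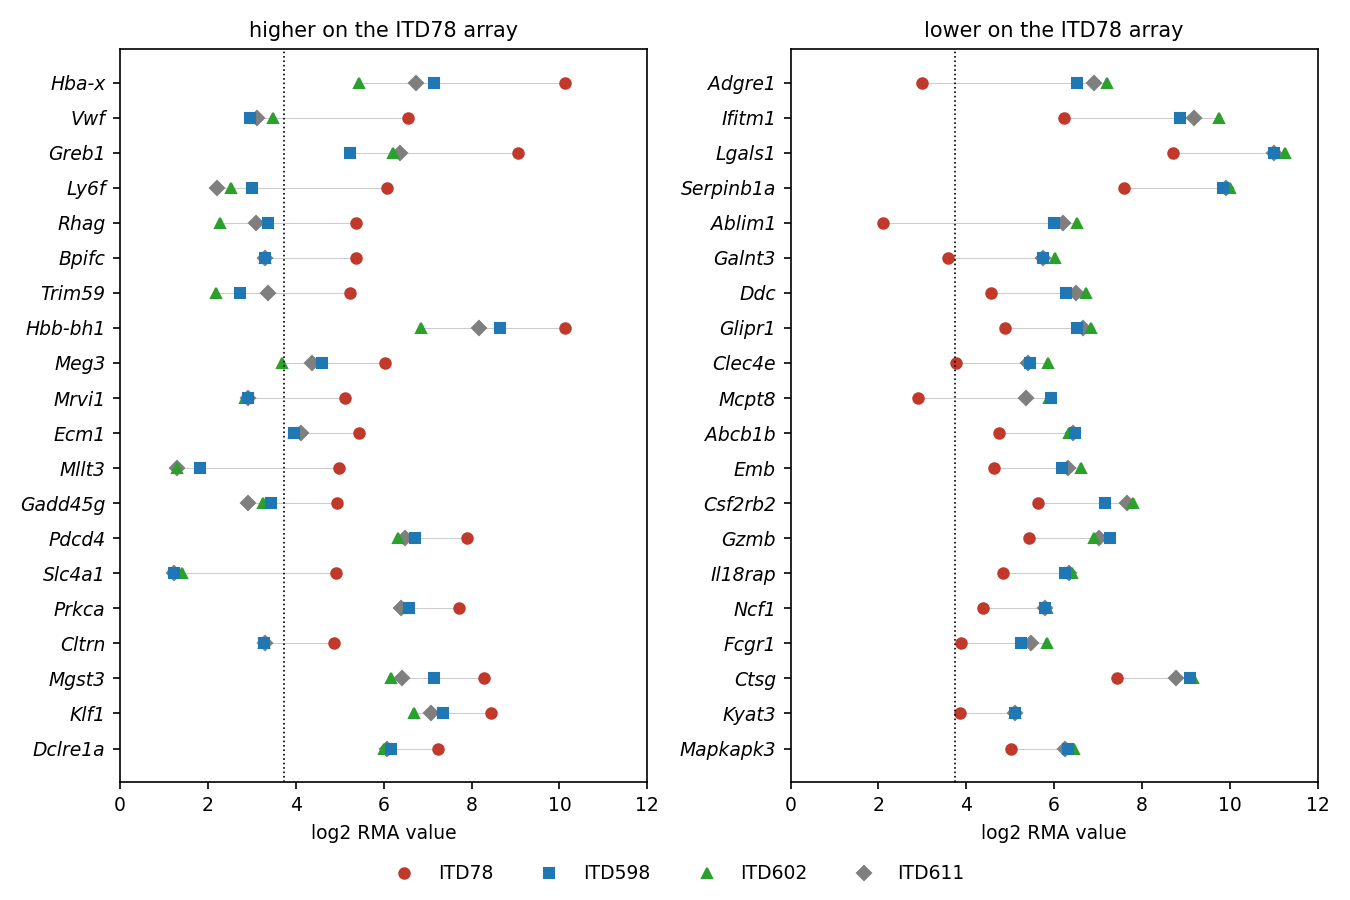
Log2 values of the 20 higher and the 20 lower genes with the greatest distance from the nearest reference array, 1 row per gene, with 1 point per array. In every row the ITD78 point lies beyond the points of ITD598, ITD602 and ITD611, and many of the low points lie under 3.74.

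Platelet and megakaryocyte genes leaned the same way with fewer members past the limit. Of 27 genes with a probe set 19 passed the filter, 3 were set apart upwards (0.426% of all genes) and 0 downwards, 17 of the 27 read above all references and 2 below (23.3% and 25.2% of all genes with a probe set), and the median difference was 0.51 past the filter and 0.29 over the 27. Vwf, the von Willebrand factor that platelets bind, read 6.56 on ITD78 and 2.96, 3.47 and 3.12 on the references. ITD78 was the only one of the 4 arrays on which Vwf lay above the low range. Mrvi1, a target of cGMP kinase in platelets and smooth muscle, read 5.12 against 2.92, 2.83 and 2.92. Thbs1, the platelet granule protein thrombospondin 1, read 4.35 against 2.21, 2.12 and 2.65. Gp9, a subunit of the receptor for von Willebrand factor, read 6.79 against 5.87, 5.46 and 5.26, just short of the limit. The integrin genes Itga2b (8.58 against 7.99, 8.23 and 7.99) and Itgb3 (6.82 against 6.02, 6.15 and 6.28), whose products form the fibrinogen receptor, read above all references as well. Pf4, the platelet chemokine, went the other way, at 5.99 against 6.44, 6.51 and 6.05. Endothelial cells also make Vwf: 6 endothelial markers summed to 12.0 on ITD78 and to 11.8 to 13.1 on the references, and the only one to reach 3.74 was Pecam1, which read 3.37 on ITD78 and 3.74, 4.16 and 3.74 on the references.

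Most of the remaining higher genes belonged to none of the 32 gene lists examined. Greb1, known as an oestrogen-responsive gene, read 9.06 on ITD78 and 5.24, 6.21 and 6.36 on the references, 8.71-fold their mean, and a further probe set read 8.25 against 4.29, 5.48 and 5.56. Mllt3, a regulator of stem cell maintenance and a partner in MLL fusions, read 4.97 against 1.83, 1.29 and 1.29. It was the only member of a 22-gene stem cell list set apart (upwards 0.253% of all genes with a probe set). Ly6f, of the Ly6 surface protein family, read 6.07 against 3.00, 2.53 and 2.21. Of these, Greb1 was above the low range on all 4 arrays, while every reference value of Mllt3 and Ly6f lay in it. With values below 3.74 raised to it, Mllt3 stood 1.23 and Ly6f 2.33 above the nearest reference.

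Several higher genes were well measured on all 4 arrays. Pdcd4, an inhibitor of translation initiation, read 7.90 against 6.72, 6.32 and 6.48 (2.64-fold). Prkca, protein kinase C alpha, read 7.72 against 6.58, 6.55 and 6.40 (2.32-fold). Dclre1a, a nuclease of crosslink repair, read 7.24 against 6.18, 6.0 and 6.07 (2.24-fold). The SDs of the references of these 3 genes were 0.20, 0.09 and 0.09, against a median of 0.20 for the higher genes and 0.0997 over all genes. Pdcd4 has 1 probe set, but the further probe sets of Prkca differed by 0.33 and 0.74 and those of Dclre1a by 0.21 and 0.89, none of them set apart. Mgst3, a microsomal glutathione transferase, read 8.27 against 7.14, 6.18 and 6.41. With the mean of all probe sets per gene the differences were 0.76 for Prkca, 0.76 for Dclre1a and 0.90 for Mgst3, all short of the limit. Clu, the chaperone clusterin, read 8.33 against 7.28 on each reference, an exact tie that is no measure of precision. Alox5, the enzyme that starts leukotriene synthesis, read 6.20 against 5.12, 5.17 and 5.07. Its partner gene Alox5ap read 8.71 against 9.06, 9.13 and 8.83, and Ltc4s, which makes leukotriene C4, was set apart downwards at 2.39 against 3.62, 4.05 and 3.47, so the pathway's members did not move as one.

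The other higher genes with full values came out of the low range. Gadd45g, a growth arrest and stress gene, read 4.94 against 3.43, 3.26 and 2.91. Trim59 read 5.23 against 2.73, 2.17 and 3.37, and Bpifc 5.37 against 3.30 on each reference. Cltrn, collectrin, read 4.87 against 3.28, 3.28 and 3.30. The secreted matrix protein gene Ecm1 was above the low range on all 4 arrays, at 5.44 against 3.95, 3.95 and 4.11. Meg3, an imprinted non-coding RNA, read 6.03 against 4.58, 3.69 and 4.36, but the other 10 of its 11 probe sets differed from the reference mean by -0.11 to 0.16. Ckm, muscle creatine kinase, read 4.67 against 3.36, 3.46 and 3.30, while 6 muscle markers summed to 10.6 on ITD78 and 10.2 to 10.4 on the references with none at 3.74. The higher side was completed by Stx2, Isg20, Pdzk1ip1, Arfgap3, Stab1, Fam178b, Slc6a20a, Ahi1, Acsl6, Asb11, Cd300a, Gp2, Med9os, Smad1 and Zc3h6, with ITD78 values from 2.54 to 5.77.

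On the lower side a macrophage antigen had the greatest distance once values below 3.74 were raised to it; without that step Ablim1 did. Adgre1, the gene of F4/80, read 3.00 on ITD78 and 6.51, 7.21 and 6.91 on the references, so it lay in the low range on ITD78 alone. A monocyte and macrophage list had 22 genes with a probe set, of which 8 passed the filter, 0 were set apart upwards and 2 downwards (0.644% of all genes), 3 of the 22 read above and 8 below all references (23.3% and 25.2% of all genes with a probe set), and the median difference was -0.58 past the filter and -0.01 over the 22. The other member set apart was Fcgr1, the high-affinity Fc gamma receptor, at 3.87 against 5.25, 5.83 and 5.48 (3.13-fold lower). A further probe set of Fcgr1 read 3.51 on ITD78 and 3.51, 3.39 and 3.57 on the references and showed no such difference, and with the mean of all probe sets per gene Adgre1 was the 1 member set apart. Fcgr2b, the inhibitory Fc receptor, read 4.72 against 5.35, 5.24 and 5.26. The colony stimulating factor 1 receptor gene Csf1r read 3.16 against 3.96, 3.66 and 3.66, and the protease gene Ctss 2.62 against 3.24, 4.10 and 3.83, both below every reference but in or near the low range.

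Innate receptors that signal through the adaptor DAP12 (Tyrobp) or Fc receptor gamma chain were among the lower genes. A group of 7 genes with a probe set, made after their values were seen, held such receptors and Tyrobp itself, but not the gamma chain gene. Of the 7, 3 were set apart downwards (0.341% of all genes with a probe set). Below all references read 5 (25.2%), and above them 2 (23.3%), Clec4d and Trem2. Clec4e, the receptor Mincle for mycobacterial glycolipid, read 3.77 on ITD78 and 5.45, 5.85 and 5.40 on the references. Clec5a read 1.76 against 3.08, 3.56 and 3.06, and Trem3 1.53 against 3.36, 3.55 and 2.77, both with all values in the low range. Their relative Trem1 read 3.51 against 4.44, 5.20 and 4.36. Tyrobp itself read 5.70 against 6.80, 6.88 and 6.52, below every reference by less than 1 unit. Clec4d, the neighbouring lectin receptor, read 8.95 against 8.71, 8.73 and 8.64, above all of them, and the gamma chain gene Fcer1g read 8.47 against 8.57, 8.57 and 8.22, inside their range.

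Genes of neutrophil granules and cytoplasm formed a further lower group. Of 22 neutrophil genes with a probe set 11 passed the filter, 0 were set apart upwards and 4 downwards (0.644% of all genes), 3 of the 22 read above and 11 below all references (23.3% and 25.2% of all genes with a probe set), and the median difference was -1.40 past the filter and -0.26 over the 22. The largest differences were those of the calprotectin genes, whose products form the main calcium-binding complex of neutrophil cytoplasm. S100a8 read 2.49 on ITD78 and 7.61, 6.65 and 3.98 on the references, and S100a9 read 2.11 against 7.39, 6.12 and 3.77. The references themselves spread by SDs of 1.88 and 1.84, with ITD598 highest and ITD611 nearest to ITD78. Ms4a3, a marker of granulocyte and monocyte progenitors, showed the same order, at 2.63 against 5.74, 5.05 and 4.01. Ngp, a granule protein, had equal values of 3.99 on ITD78 and ITD611 against 6.69 and 5.90 on ITD598 and ITD602, and the myeloperoxidase gene Mpo read 4.52 against 6.55, 6.21 and 5.00. With ITD611 left out, 7 neutrophil genes were set apart downwards in place of 4, and with values below 3.74 raised to it 1 was.

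The granule serine proteases were tighter across the references. Ctsg, cathepsin G, read 7.42 on ITD78 and 9.09, 9.17 and 8.77 on the references (3.00-fold lower, SD 0.21). Gzmb, granzyme B, read 5.44 against 7.27, 6.91 and 7.02 (3.09-fold lower, SD 0.19). Mcpt8, a protease of basophils, read 2.90 against 5.94, 5.88 and 5.36. All 3 genes lie on mouse chromosome 14, where Ctsg and Mcpt8 are at most 5 genes apart in the RefSeq order. Of 13 granzyme, mast cell protease and cathepsin G genes with a probe set, these were the 3 past the filter. Of the 13, 4 read below and 2 above all references (25.2% and 23.3% of all genes with a probe set). Mcpt1 was among those above, at 2.27 against 0.97, 1.12 and 0.92, all in the low range. Prtn3, proteinase 3, on another chromosome, read 5.83 against 7.20, 7.45 and 6.81 and just missed the limit. Serpinb1a, an inhibitor of such proteases, was also lower, at 7.59 against 9.85, 10.01 and 9.92 (5.07-fold), and its further probe set read 5.30 against 7.93, 8.0 and 8.06.

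A list of mast cell, basophil and eosinophil genes did not lean either way. Of 23 with a probe set 11 passed the filter, 1 was set apart upwards (Alox5) and 2 downwards (Mcpt8 and Ltc4s), against 0.426% and 0.644% of all genes. Of the 23, 7 read above and 6 below all references (23.3% and 25.2% of all genes with a probe set). The median difference was 0.02 past the filter. Cpa3, the mast cell carboxypeptidase, read 3.66 on ITD78 and 2.53, 2.48 and 2.72 on the references, and Prg2, the eosinophil major basic protein, read 1.53 against 3.47, 2.20 and 2.01. Gata2, a factor of mast cells and stem cells, read 7.88 against 8.18, 8.34 and 8.03.

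The phagocyte oxidase was represented by Ncf1, its p47 organiser subunit, which read 4.38 on ITD78 and 5.79, 5.84 and 5.79 on the references (2.69-fold lower). Its further probe sets were not set apart, and with the mean of all probe sets Ncf1 differed by -0.80, short of the limit. None of the other subunit genes was set apart. Ncf4 read 5.88 against 6.26, 6.55 and 6.18, below all references by under 1 unit. Cyba read 8.13 against 8.26, 8.33 and 7.77, and Rac2 read 7.16 against 6.91, 7.05 and 6.80.

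Of 6 interferon-inducible membrane protein genes of the Ifitm family with a probe set, 2 were set apart downwards (0.341% of all genes with a probe set). Of the 6, 4 read below all references and 1 above (25.2% and 23.3% of all genes with a probe set). Ifitm1, which like its relatives restricts virus entry, read 6.22 on ITD78 and 8.86, 9.74 and 9.17 on the references, 8.24-fold below their mean. Its neighbour Ifitm3 read 7.04 against 8.21, 8.81 and 8.16 (2.56-fold lower). Ifitm2 read 6.83 against 7.08, 7.29 and 6.99, below all 3 but by little. Ifitm6 was low on all arrays (0.99 against 2.12, 1.82 and 1.67), Ifitm5 read above all references (2.99 against 2.82, 2.70 and 2.64), and Ifitm10 lay inside their range. The wider list of interferon-stimulated genes did not match these members in size: of 32 with a probe set 13 passed the filter, Ifitm1 and Ifitm3 were set apart downwards (0.644% of all genes) and 0 upwards, 15 of the 32 read below and 5 above all references (25.2% and 23.3% of all genes with a probe set), and the median difference was -0.18 past the filter. Bst2, tetherin, read 4.59 against 5.33, 5.48 and 5.40. Ifngr2, a chain of the interferon gamma receptor, was set apart at 2.96 against 4.19, 4.08 and 3.98.

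Receptors for cytokines included a chain of special interest in a line that grows on interleukin-3. Csf2rb2, the mouse interleukin-3-specific beta chain, read 5.62 on ITD78 and 7.16, 7.81 and 7.66 on the references, 3.78-fold below their mean. Csf2rb, the beta chain common to the receptors of GM-CSF, interleukin-5 and interleukin-3, read 7.0 on ITD78 and 7.96, 8.39 and 8.54 on the references, 2.45-fold below the mean and just short of the limit against ITD598. These neighbouring genes are close in sequence, so how far their probe sets cross-detect each other was not tested. Il3ra, the alpha chain, read 3.62 against 3.66, 3.62 and 3.50 and did not differ. Il18rap, the accessory chain of the interleukin-18 receptor, read 4.85 against 6.26, 6.41 and 6.35 (2.81-fold lower), and its partner chain gene Il18r1 read 4.73 against 5.44, 5.59 and 5.44. Il1r1 read 3.67 against 4.51, 4.74 and 4.69. Of 35 cytokine receptor genes with a probe set 21 passed the filter, 2 were set apart downwards (0.644% of all genes) and 0 upwards. Csf2rb2 was 1 of these 2, while Il18rap was not in the list. Of the 35, 17 read below and 5 above all references (25.2% and 23.3% of all genes with a probe set). The median difference of the list was -0.31 past the filter.

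**Figure D3:**
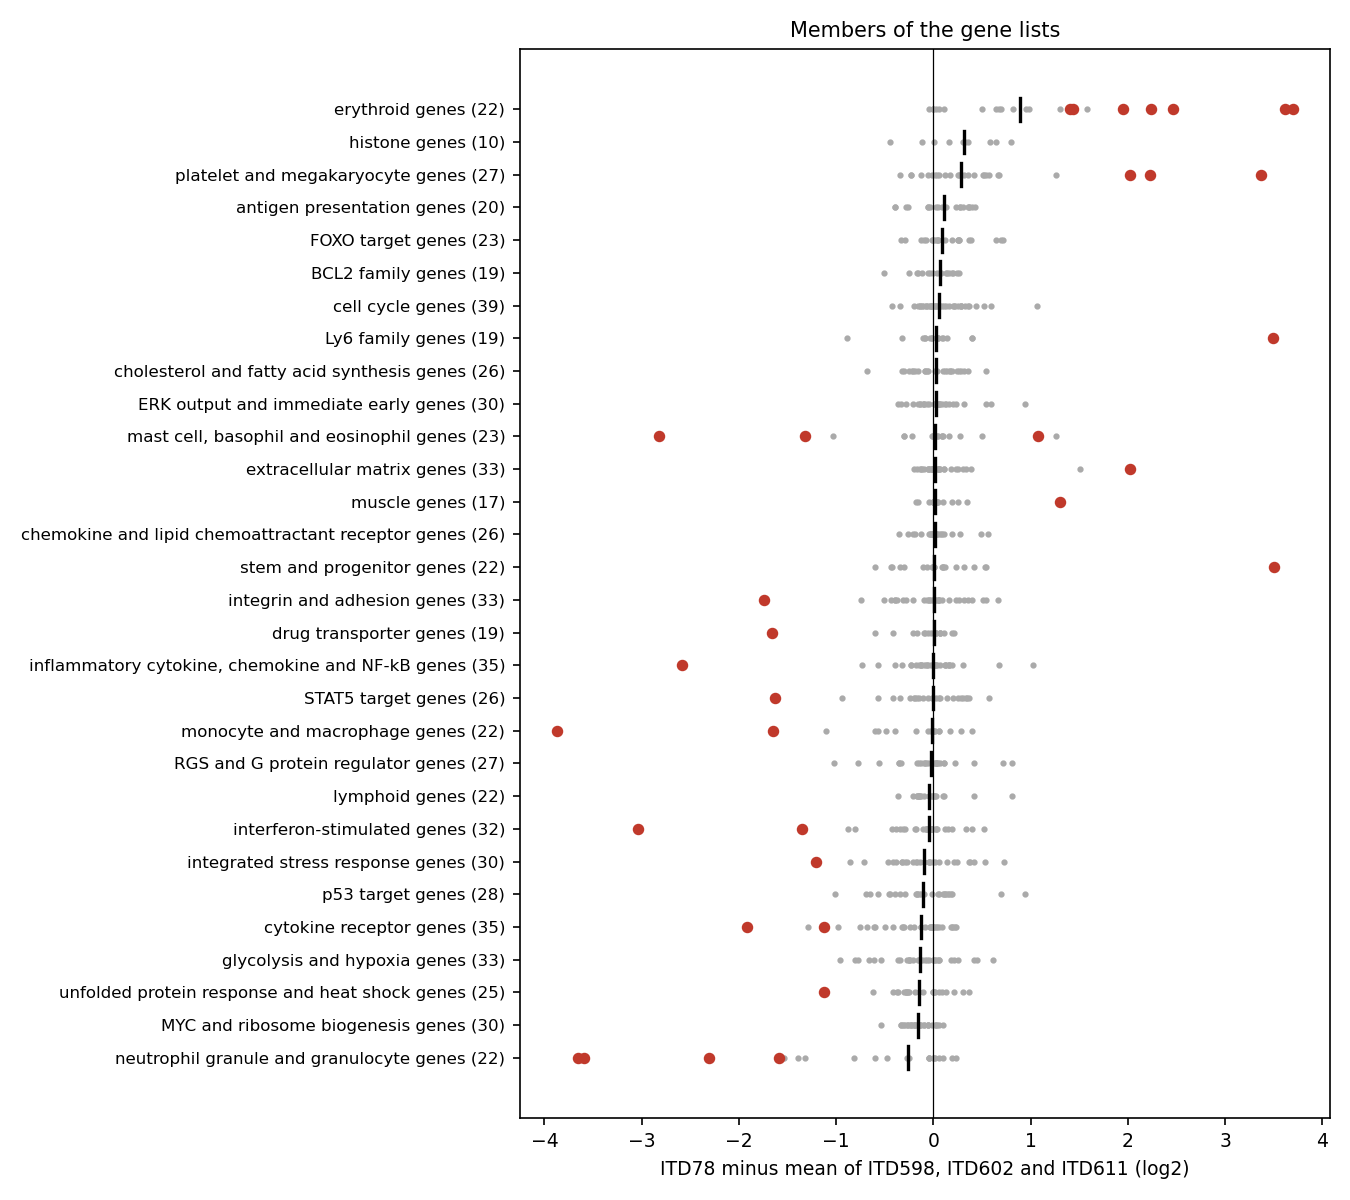
Difference of ITD78 from the mean of the 3 reference arrays (log2, horizontal axis) for each gene with a probe set in the gene lists with at least 5 members past the filter, 1 row per list, with the list's median over all genes with a probe set as a bar and genes set apart as large points. The erythroid and platelet lists extend to the right, with medians of 0.89 and 0.29, and the neutrophil and monocyte lists to the left, with medians of -0.26 and -0.01.

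Among the other lower genes were some with high levels on every array. Lgals1, the sugar-binding protein galectin 1, read 8.69 on ITD78 and 11.00, 11.24 and 11.00 on the references, 5.23-fold lower, and its further probe set read 7.76 against 10.26, 10.49 and 10.19. The galectins did not go together: Lgals3 read 5.10 against 4.41, 3.73 and 4.02, and Lgals9 5.09 against 4.38, 4.38 and 4.19, both above every reference. S100a4 (8.70 against 9.79, 9.54 and 9.42) and S100a6 (7.89 against 8.74, 8.31 and 8.18), calcium-binding relatives of the calprotectin genes, read below all references without reaching the limit.

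Membrane proteins and transporters made up a further share of the lower genes. Abcb1b, a P-glycoprotein that exports drugs, read 4.76 on ITD78 and 6.49, 6.34 and 6.42 on the references (3.16-fold lower). Emb, embigin, a chaperone of monocarboxylate transporters, read 4.63 against 6.19, 6.61 and 6.31 (3.34-fold lower). Cd53, a tetraspanin of leukocytes, read 1.43 against 4.39, 5.17 and 5.00. Of 8 tetraspanin genes with a probe set 5 read above all references and 3, Cd53 among them, below (23.3% and 25.2% of all genes with a probe set). Cd52, a lymphocyte and monocyte surface antigen, read 3.66 against 5.76, 5.37 and 4.82. Btla, an inhibitory receptor, read 4.14 against 5.33, 5.51 and 5.60, and Calcrl, the receptor of adrenomedullin, read 4.10 against 5.53, 5.25 and 5.25.

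Enzymes and cytoplasmic proteins followed. Ablim1, an actin-binding protein, read 2.11 on ITD78 and 6.0, 6.51 and 6.21 on the references. Galnt3, which starts mucin-type glycosylation, read 3.58 against 5.74, 6.01 and 5.75. Ddc, the decarboxylase of dopamine and serotonin synthesis, read 4.56 against 6.27, 6.73 and 6.49 (3.83-fold lower). In Ablim1 and Galnt3 the ITD78 value was in the low range. Glipr1 read 4.89 against 6.53, 6.83 and 6.66, with no such distance in its other probe set (-0.06). Mapkapk3, a kinase under p38, read 5.01 against 6.32, 6.46 and 6.26 (2.51-fold lower), and the transaminase gene Kyat3 read 3.86 against 5.12 on each reference.

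Both fructose bisphosphatases, which work against glycolysis, and a hexokinase were set apart. Fbp2 read 5.82 on ITD78 and 7.02, 7.25 and 7.36 on the references (2.62-fold lower). Its neighbour on chromosome 13, Fbp1, read 1.55 against 2.86, 3.04 and 2.60, all low. Hk3, the hexokinase of myeloid cells, read 5.02 against 6.45, 6.38 and 6.17 (2.49-fold lower). The housekeeping hexokinase gene Hk1 read 6.68 against 6.53, 6.96 and 6.68, inside the range of the references, and Hk2 read 7.18 against 7.87, 8.09 and 8.0. Among 33 glycolysis and hypoxia genes with a probe set, none of the 27 past the filter was set apart, 17 of the 33 read below and 7 above all references (25.2% and 23.3% of all genes with a probe set), and the median difference was -0.15 past the filter.

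Transcription factors on the lower side included Mitf, Tfec, Klf6 and Nfil3. Mitf, the master factor of melanocytes that also serves mast cells and osteoclasts, read 1.79 on ITD78 and 3.75, 4.11 and 3.75 on the references. Its relative Tfec, expressed in macrophages, read 3.65 against 4.73, 5.00 and 4.90. Of the same family Tfe3 read 4.30 against 4.46, 4.52 and 4.39, below all references by under 1 unit. Klf6 read 3.30 against 4.82, 4.61 and 4.48, and Nfil3, a basic leucine zipper factor, read 3.29 against 4.42, 4.86 and 4.56. In each of these 4 the ITD78 value was in the low range. The chemokine gene Ccl3 read 1.92 against 4.16, 4.93 and 4.42. It was the only one of 35 inflammatory genes with a probe set to be set apart (downwards 0.341% of all genes with a probe set). 

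Regulators of small GTPases and cell surface signals were among the lower genes whose ITD78 value lay in the low range. Tiam1, an exchange factor of RAC, read 3.30 on ITD78 and 4.76, 5.31 and 5.0 on the references. Rhoj, a small GTPase related to CDC42, read 2.44 against 4.52, 5.64 and 5.31. Evi5, which acts on RAB proteins, read 2.12 against 4.57, 5.02 and 4.75. In all 3 the references lay above 3.74 and ITD602 was the highest of them. P2ry14, a receptor for UDP-glucose, read 2.20 against 4.5, 4.82 and 4.69, and the semaphorin receptor gene Plxnd1 read 3.19 against 4.35, 4.62 and 4.36. Acvr1, a receptor for bone morphogenetic proteins, read 0.86 against 3.07, 3.75 and 3.37. Its further probe sets, all in the low range, differed from the reference mean by -0.14 and 0.34, the latter above all references. Smad1, which carries that receptor's signal, was one of the higher genes at 2.77 against 1.35, 1.46 and 1.61, with all values in the low range.

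Stress pathway enzymes had a single lower member each. Edem1, which hands misfolded glycoproteins to degradation, read 5.42 on ITD78 and 6.45, 6.65 and 6.54 on the references (2.18-fold lower). It was the 1 gene set apart among 22 unfolded protein response and heat shock genes past the filter (1.07% of all genes). Gpt2, a mitochondrial alanine transaminase induced by ATF4, read 3.16 against 4.30, 4.62 and 4.16. It was the 1 gene set apart among 23 integrated stress response genes past the filter (1.07% of all genes). Atp10a, a phospholipid flippase, read 1.34 against 4.69, 4.67 and 4.67, and the homeobox gene Rhox5 read 2.38 against 5.82, 4.93 and 5.48. The lower side was completed by Nabp1, Nap1l3, Dglucy, Armcx4, Pstpip1, Fam102a, Otulinl and Folr1, besides Mdfic, Met and Asz1 and 1 unnamed RIKEN clone gene.

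**Figure D4:**
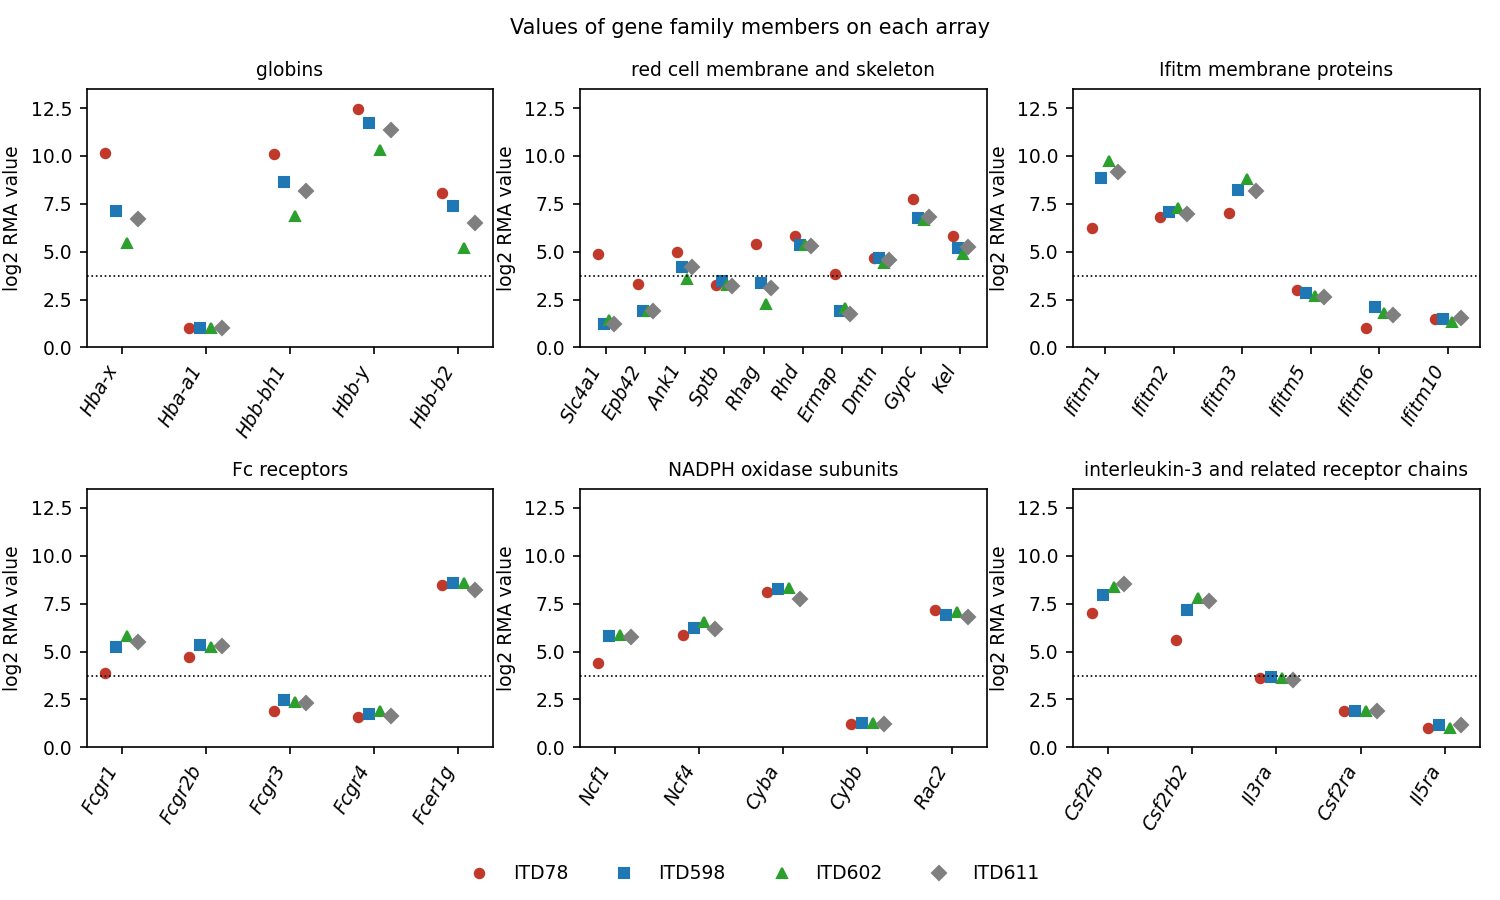
Log2 values on the 4 arrays for members of 6 small gene families, 1 panel per family and 1 column per gene, with the level of 3.74 dotted. Ifitm1, Ifitm3, Fcgr1, Ncf1 and Csf2rb2 lie clearly lowest on ITD78, while 4 of 5 globins and 9 of 10 red cell membrane genes lie highest on it.

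Some of the genes set apart were neighbours on the chromosome. Of the 103, 100 could be placed in the RefSeq gene order of GRCm38.p6. Each was paired only with the next gene set apart on its chromosome. Of such pairs, 9 lay at most 5 protein-coding genes apart, of which 7 were set apart the same way. No share over all genes was taken for such pairs. All 7 were on the lower side: Fbp2 with Fbp1 on chromosome 13, Mcpt8 with Ctsg on 14, S100a8 with S100a9 on 3, Ifitm1 with Ifitm3 on 7, and Mdfic with Tfec, Tfec with Met and Met with Asz1 on 6. The opposite pairs were Gadd45g with Nfil3 on 13 and Plxnd1 with Alox5 on 6.

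The longest run of neighbours lay on chromosome 6, from Mdfic to Asz1. The stretch has 10 genes, of which 8 passed the filter, 7 of these read below all references (34.3% of all genes past the filter) and 6 lay at least 1 below the reference mean (1.08%). The stretch was chosen because it holds genes set apart. Mdfic, an inhibitor of MyoD-type factors, read 4.06 on ITD78 and 5.14, 5.69 and 5.20 on the references. Met, the hepatocyte growth factor receptor gene, read 1.05 against 4.04, 4.12 and 3.53, and Asz1, a germ cell gene, read 2.30 against 4.13, 4.62 and 4.11. Of the genes between them that were not set apart, 2 more lay at least 1 below the reference mean: Tes, a focal adhesion protein, at 5.81 against 6.59, 7.07 and 6.78, with a second probe set lower by 1.02 than the reference mean, and Cav2, caveolin 2, at 4.94 against 6.19, 5.91 and 5.91. Capza2, an actin capping protein, differed by -0.28, and St7 read 6.49 against 5.99, 6.09 and 6.09, above all references. Cav1 and Wnt2 were in the low range on all 4 arrays, Cav1 at 1.22 against 1.22, 1.43 and 1.22 and Wnt2 at 1.02 throughout. Second probe sets of Cav2, Met and Asz1 differed by 0.08, -0.02 and -0.20, so the difference rests on 1 probe set for each of these. Of 10 flanking genes 4 passed the filter, with differences from -0.44 to 0.018, and 3 of these 4 also read below all references.

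**Figure D5:**
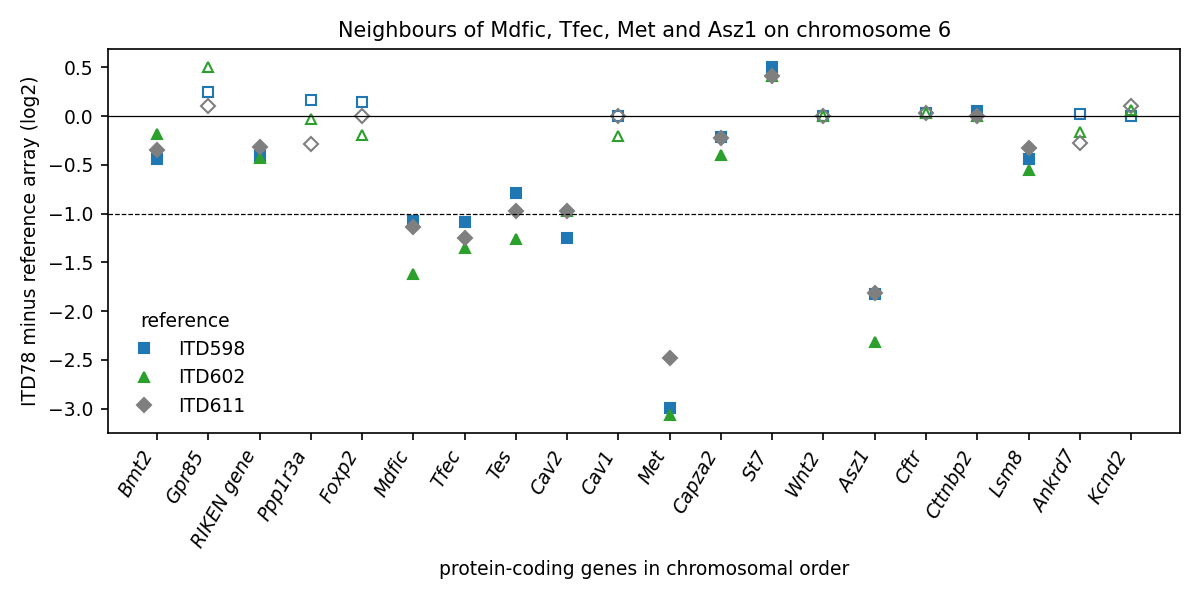
Difference of ITD78 from each of the 3 reference arrays (log2, vertical axis) for 20 protein-coding genes in chromosomal order around the stretch from Mdfic to Asz1 (horizontal axis), with open points for genes that did not pass the filter. Mdfic, Tfec, Tes, Cav2, Met and Asz1 lie below 0 against every reference, while Capza2 lies near 0 and St7 above it.

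The promoters of the genes set apart were searched for 5 short motifs, on both strands, in RefSeq promoters of GRCm38.p6 that run from 250 bases before to 50 after the start. Promoters were found for 36 of the 41 higher, 55 of the 62 lower and 7890 of all 9621 genes. AGGAAGT, a site of PU.1 and other ETS factors, was found in 15 lower genes (27.3%) and 3 higher ones (8.33%), against 10.8% of all genes past the filter and 9.35% of all promoters in the table. TTGCNNAA, a C/EBP motif, was found in 10 lower (18.2%) and 4 higher genes (11.1%), against 9.43% of all genes. TTCNNNGAA, a STAT motif, was found in 7 lower (12.7%) and 2 higher genes (5.56%), against 8.19%. The GATA factor motif AGATAA was found in 5 higher (13.9%) and 6 lower genes (10.9%), against 7.49%. CACGTG, an E-box, was found in 3 higher (8.33%) and 6 lower genes (10.9%), against 12.0%. Over all promoters in the table the shares were 10.8% for TTGCNNAA, 8.30% for TTCNNNGAA, 11.2% for AGATAA and 7.15% for CACGTG. Which share is taken for comparison thus matters for AGATAA and CACGTG. A match is a run of letters, not a bound site.

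The STAT and PU.1/ETS motifs occurred in the same promoter in 3 lower genes (5.45%), in 0 higher genes and in 1.00% of all genes past the filter. These 3 were Csf2rb2, Ctsg and Fcgr1, and the 250 bases before their starts are given here, 5′ to 3′ on the gene's strand, with every match to either motif in capitals; the AGGAAGT match of Csf2rb2 lies after the start and is outside the printed stretch.
Csf2rb2, chr15:78305722-78305971 (minus strand): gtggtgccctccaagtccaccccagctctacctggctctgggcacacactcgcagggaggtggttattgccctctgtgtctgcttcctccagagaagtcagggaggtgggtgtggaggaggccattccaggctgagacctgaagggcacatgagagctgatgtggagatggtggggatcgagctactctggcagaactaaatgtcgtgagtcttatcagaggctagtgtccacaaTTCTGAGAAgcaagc
Ctsg, chr14:56102575-56102824 (minus strand): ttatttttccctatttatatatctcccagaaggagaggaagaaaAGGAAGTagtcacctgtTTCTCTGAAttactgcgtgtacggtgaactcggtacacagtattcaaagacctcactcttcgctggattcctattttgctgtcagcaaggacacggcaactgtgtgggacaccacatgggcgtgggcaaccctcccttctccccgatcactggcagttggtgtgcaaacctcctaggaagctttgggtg
Fcgr1, chr3:96293970-96294219 (minus strand): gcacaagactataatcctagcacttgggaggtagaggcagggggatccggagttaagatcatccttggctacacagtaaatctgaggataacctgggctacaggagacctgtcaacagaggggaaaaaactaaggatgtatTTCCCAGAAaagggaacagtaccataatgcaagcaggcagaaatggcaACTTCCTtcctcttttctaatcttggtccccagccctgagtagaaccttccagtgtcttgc
Fcgr1 carries the ETS letters on the opposite strand, as ACTTCCT. On the higher side, the 5 genes with an AGATAA match were Bpifc, Epb42, Gp2, Isg20 and Mrvi1. Hba-x, Hbb-bh1, Klf1, Slc4a1, Rhag and Vwf were not among them. Epb42 and Mrvi1, picked from the 5, are shown with their match in capitals, which is TTATCT on the printed strand. A further promoter of Mrvi1 has no match.
Epb42, chr2:121036878-121037127 (minus strand): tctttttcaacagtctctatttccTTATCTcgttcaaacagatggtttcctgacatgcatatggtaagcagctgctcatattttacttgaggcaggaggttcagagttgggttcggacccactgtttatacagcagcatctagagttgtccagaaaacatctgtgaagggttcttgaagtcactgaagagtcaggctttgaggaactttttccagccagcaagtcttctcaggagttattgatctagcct
Mrvi1, chr7:110982462-110982711 (minus strand): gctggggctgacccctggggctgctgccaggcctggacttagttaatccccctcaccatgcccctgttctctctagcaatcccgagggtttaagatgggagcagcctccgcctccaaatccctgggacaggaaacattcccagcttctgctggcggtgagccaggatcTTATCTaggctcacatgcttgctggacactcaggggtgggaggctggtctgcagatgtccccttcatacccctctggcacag

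Lists of FLT3-driven signalling and growth had few or no members set apart. Of all genes past the filter 1.07% were set apart, and at that share lists of this size hold few or none. Of 26 STAT5 targets with a probe set 21 passed the filter and Gzmb was the only one set apart, with a median difference of -0.06 and with 10 above and 11 below all references (23.3% and 25.2% of all genes with a probe set). Pim1, a STAT5-induced kinase, read 8.62 on ITD78 and 8.68, 8.98 and 8.73 on the references, and Cish, a feedback inhibitor of STAT5, read 5.84 against 6.15, 6.53 and 6.53. Socs2, of the same inhibitor family, went the other way at 7.19 against 6.86, 6.83 and 6.86. None of 21 ERK output genes, 15 FOXO targets, 30 MYC and ribosome genes, 39 cell cycle genes, 14 BCL2 family genes, 23 p53 targets and 25 cholesterol genes past the filter was set apart. Their medians stood at 0.05 for the ERK genes, 0.19 for the FOXO targets, -0.16 for the MYC and ribosome genes, 0.05 for the cell cycle genes and -0.17 for the p53 targets. In the MYC and ribosome list 20 of 30 genes read below all references and 1 above, where 34.3% and 27.5% of all genes did so, while Myc read 7.47 against 7.41, 7.37 and 7.44. Over all lists, 32 of the 103 genes set apart were members of at least 1 list and 71 of none.

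Where a gene had further probe sets, these gave a readout that the choice of genes had not used. Of the 103 genes, 53 had 91 further probe sets, of which 70 differed from the reference mean in the same direction and 21, in 18 genes, lay at least 1 beyond all references the same way. Of the 42 that reached the filter value of 2.75 on at least 1 array of the series, in 29 genes, 41 had the same direction and 19, in 16 genes, were set apart the same way. Of all genes with a probe set 0.253% were set apart upwards and 0.341% downwards, and no share in the same direction was taken over all probe sets. A probe set of a higher gene can reach 2.75 through ITD78 alone, and all probe sets of a gene read the same RNA. These counts are thus no independent check. The reference arrays were not equally far from ITD78. In the lower genes ITD602 was the highest reference in 42 of 62 (67.7%), against 46.0% of all genes, and ITD611 in 2 (3.23%), against 17.2%. In the higher genes ITD602 was the lowest reference in 18 of 41 (43.9%), against 25.7% of all genes. The median of ITD78 minus each single array was nonetheless similar, at 1.45, 1.61 and 1.57 for the higher genes and -1.55, -1.79 and -1.49 for the lower genes against ITD598, ITD602 and ITD611.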

How the data were processed

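The deposited log2 values of Affymetrix Mouse430_2 arrays were used. The authors made them with RMA, per the submitters' processing notes, and the software, its version and the chip definition are not given in the sources used here. A natural log scale does not apply, since values exceed 11.09, the highest that the scanner allows on such a scale. RMA normalizes between arrays, so values are relative across arrays and hold no absolute zero, and the array number (1 per construct) limits the precision. The platform annotation gave 1 gene symbol to 34958 of 45101 probe sets and several to 932, and did not list 9211. Without the 64 controls, some of which it lists, 34945 probe sets were used. Gene IDs of 34741 matched RefSeq (GRCm38.p6), which renamed 0. Each of 18193 genes was read from its brightest probe set (mean over the 5 arrays of the series), and 9621 genes whose highest value reached the 60th percentile (2.75) were kept. The fifth array entered these 2 steps and the same limit on further probe sets, and nothing else. ITD78 was then set against the 3 reference arrays with Python 3.11.15, pandas 2.3.3, NumPy 2.4.6 and matplotlib 3.10.9, and the rule was tested on simulated data. No test was made.

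Full values are given for the 20 higher and 20 lower genes with the greatest distance from the nearest reference, taken after values below 3.74 were raised to it, for up to 4 members per gene list with the greatest difference, and for Flt3. The comparison and the lists were chosen with earlier results of these data known. Small families, chromosomal neighbours and further genes, such as Gata1, Gfi1b, Nfe2, Tal1, Zfpm1, Tfrc and Myc, were named after their values were seen. RIKEN and predicted genes were left unnamed. Other probe set choices, filters, normalizations and left-out arrays were tried as alternatives. Promoters and gene order are from RefSeq, GRCm38.p6.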

Additional observations from a re-analysis of the deposited data

How the results depend on the processing

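With 1 array per construct no value has a replicate check, and the counts of genes set apart moved with the processing. No gene among the 40 with full values changed its direction under any of the 12 alternatives that give a value per gene. These genes were chosen for lying far beyond all references. The filters, left-out arrays and raised low values could therefore not reverse them, and only other probe sets or normalizations could have. With each gene taken as the mean of all its probe sets, 26 genes were set apart upwards and 1 monocyte gene downwards. With values below 3.74 raised to it, 26 were set apart upwards and 32 downwards, 64 lay at least 1 below the reference mean and 1 neutrophil gene was set apart, since differences inside the low range are removed by construction; 58 of the 103 genes remained (56.3%). With the filter on the mean of the 4 arrays, 4 erythroid genes were set apart. Measured from the mean of the references, 69 were set apart upwards, 104 downwards and 7 neutrophil genes among them. With each reference array left out in turn, 44 to 62 genes were set apart upwards (62 without ITD598) and 64 to 78 downwards, 60 to 86 lay at least 1 above the reference mean and 87 to 110 below, and 7 to 8 erythroid, 3 to 4 platelet, 4 to 7 neutrophil (7 without ITD611) and 2 to 3 monocyte genes were set apart; fewer references make the rule easier to meet. Of the genes named in full, 9 had a value under 1 in size somewhere, mostly with the mean of probe sets, such as Meg3 (0.18, and 0.034 once _x_at and _s_at probe sets were dropped), Prkca (0.76), Ncf1 (-0.80) and Fcgr1 (-0.81). No paired analysis was possible because each construct has 1 array and the labels carry no replicate numbers.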
